A study of Drosophila melanogaster with 2 samples.

Results

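The microRNA loci of Drosophila melanogaster were examined in the DNA-binding map of a muscle regulator, the homeodomain protein lateral muscles scarcer (lms, also CG13424). A locus was a gene annotated as a microRNA precursor hairpin, with 1 entry per hairpin, and a summit was the base of highest signal within a peak. The annotation held 262 such hairpins among 17873 genes of all kinds, and all of them were included, bound or not. Of these, 260 lay on the 7 chromosomes and arms that carry peaks, namely 58 on X, 56 on 2L, 55 on 2R, 31 on 3L, 58 on 3R and 2 on 4, and the other 2 lay on a ribosomal DNA scaffold on which no peak was listed. Hairpins less than 10 kb apart on the same strand were joined into 205 clusters, and 183 hairpins stood alone.

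A single group was studied, with 2 biological replicates of whole embryos of both sexes aged 6 to 18 h. The flies stably carried a transgene for lms with GFP at its C-terminus, in a line whose driving promoter and remaining untagged lms are not given in the sources used here. Chromatin bound by the fusion protein was precipitated with an anti-GFP antibody, and no condition was compared with another. In which cells of the embryo the protein sat on a given site was not measured.

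MicroRNAs are short RNAs cut from hairpins in longer primary transcripts by Drosha with Pasha and then by Dicer-1 with Loquacious. Loaded into Argonaute-1, they pair with messenger RNAs chiefly through a short seed near their 5′ end and lower the output of those messengers. In Drosophila embryos they are known for roles in muscle (mir-1), in growth and cell survival (bantam) and in clearing maternal messengers (the mir-309 cluster), while lms is known from the development of the lateral transverse muscles.

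The mature sequences below belong to bound hairpins that the results turn on, and show which of them share a seed. Among the hairpins of X, 2L, 3L, 3R and 4, to which the comparison of seeds was limited, the AUCACAG seed was carried by 9, of which the 3 of 1 cluster on 3R had a reproducible summit within 2 kb. The seed, bases 2 to 8 from the 5′ end, is in capitals, and sequences are RefSeq's on the release 6 assembly.
mir-13a: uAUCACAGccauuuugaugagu
mir-13b-1: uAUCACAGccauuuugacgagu
mir-2c: uAUCACAGccagcuuugaugggc
The other bound hairpins each had a seed of their own within this set, and the muscle microRNA mir-1 is set last for comparison although its nearest reproducible summit lay beyond 2 kb.
mir-279: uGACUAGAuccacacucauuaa
mir-92a: cAUUGCACuugucccggccuau
mir-277: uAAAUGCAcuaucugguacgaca
mir-34: uGGCAGUGugguuagcugguugug
mir-ban: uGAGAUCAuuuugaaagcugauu
mir-282: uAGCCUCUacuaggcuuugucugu
mir-4968: uAGCUGCCacgguuuguugcuu
mir-2496: gUGCGUGUgugagaggccaucgua
mir-9377: cGCUCUUUcucucuaucuggcc
mir-9378: aGUGGAGUgagaccucgaguucgg
mir-1: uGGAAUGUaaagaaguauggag

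The seed of mir-279 was shared by its unbound cluster neighbour mir-996, and that of mir-92a by its unbound neighbour mir-92b. A neighbour with the same seed lay beyond the 2 kb limit in both clusters. Among 205 hairpins with a first-listed mature arm on the chromosomes X, 2L, 3L, 3R and 4, 181 seeds were found and 15 of them occurred in more than 1 hairpin. Of these, the seeds of the bound mir-2c, mir-92a, mir-279, mir-4968 and mir-275 were each shared with an unbound hairpin.

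The DNA at the highest peak of each of the 6 hairpin clusters with the highest signals is shown because it is what the tagged protein was found on. Each window spans 101 bases of the plus strand of dm6 centred on the summit, with the hairpins named, and runs of 6 or more bases made only of A and T are in capitals.
mir-279, chr3R:29214397-29214497: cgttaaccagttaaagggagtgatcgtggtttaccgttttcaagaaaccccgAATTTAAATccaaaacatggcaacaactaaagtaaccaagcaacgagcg
mir-9377, chrX:12666581-12666681: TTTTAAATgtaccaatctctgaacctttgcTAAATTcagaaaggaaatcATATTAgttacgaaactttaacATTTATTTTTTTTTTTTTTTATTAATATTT
mir-282, chr3L:3250152-3250252: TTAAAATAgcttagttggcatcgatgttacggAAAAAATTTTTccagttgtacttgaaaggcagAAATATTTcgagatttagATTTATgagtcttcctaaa
mir-92a, chr3R:25646969-25647069: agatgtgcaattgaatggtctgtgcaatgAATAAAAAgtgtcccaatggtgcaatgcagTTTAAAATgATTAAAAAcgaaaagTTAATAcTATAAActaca
mir-ban, chr3L:640713-640813: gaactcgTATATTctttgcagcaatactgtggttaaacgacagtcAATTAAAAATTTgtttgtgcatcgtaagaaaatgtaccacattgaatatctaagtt
mir-13b-1, mir-13a and mir-2c, chr3R:15418957-15419057: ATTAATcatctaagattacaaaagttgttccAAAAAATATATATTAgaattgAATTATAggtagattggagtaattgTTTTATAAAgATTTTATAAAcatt
AT-only runs were present in all 6 windows, from 1 run at mir-279 to 5 runs at mir-92a and at the mir-13b-1, mir-13a and mir-2c cluster. The GC content of the windows ranged from 18.8% at that cluster to 41.6% at mir-279. The longest run covered 30 bases beside mir-9377.

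Such runs did not set the microRNA peaks apart from other peaks. A run of at least 6 bases lay in 37 of 40 linked windows (92.5%), against 5919 of 6217 windows (95.2%) around all reproducible summits of the same chromosomes. Mean GC content over 51 bases was 33.41% at the linked summits and 31.48% at all reproducible summits. The homeodomain core TAATTA, searched within 50 bp of the summit, was found at 6 of 52 linked summits (11.5%), against 853 of 7521 (11.3%) in all; the 6 lay near mir-9377, bantam, mir-8, mir-2491, mir-969 and the mir-275 and mir-305 pair. Its sequence is the same on both strands. TATCGATA, also the same on both strands, was found at none of the 52 linked summits, against 1.58% of all, and GGTCACAC on either strand at none, against 0.851%. With shares this low over all summits, 52 summits are too few to read an absence from.

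Reproducible binding near microRNA hairpins was sparse. The IDR list is the authors' set of peaks that passed a reproducibility threshold, whose settings are not given. Its peaks are called reproducible here, though not each had a nearby summit in both replicate lists. Replicate 2 had one within 150 bp of 49 of the 52 linked summits. The IDR list put a summit within 2 kb of 45 of 262 hairpins (17.2%). By the same distance from the 5′ end, 35.6% of all other genes (6236 of 17536) had one. The hairpins' share was also below the 37.8% of protein-coding genes by their 5′ ends and the 32.9% of other non-coding genes shorter than 300 bp, such as small nucleolar and transfer RNAs. It equalled the share of the assembled chromosomes that lay within 2 kb of a summit, 17.2%.

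The distance profile gave the same order close to the hairpins and a smaller gap farther out. Within 250 bp, 2.67% of hairpins had a summit, against 21.2% of protein-coding 5′ ends and 2.66% of the assembled bases. Within 1 kb the shares were 11.1% of hairpins, 30.8% of protein-coding 5′ ends and 9.67% of bases. At 5 kb the hairpins stood above the assembled sequence, with 41.2% against 33%. At 10 kb they reached 67.2%, against 70.8% of protein-coding 5′ ends, 66.2% of other short non-coding genes and 48.5% of bases. The median distance from a hairpin to its nearest IDR summit was 6199.5 bp, with quartiles at 2992.5 and 13928.5 bp, against medians of 3996 bp for protein-coding 5′ ends and 4422 bp for the 5′ ends of all other genes.

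**Figure D1:**
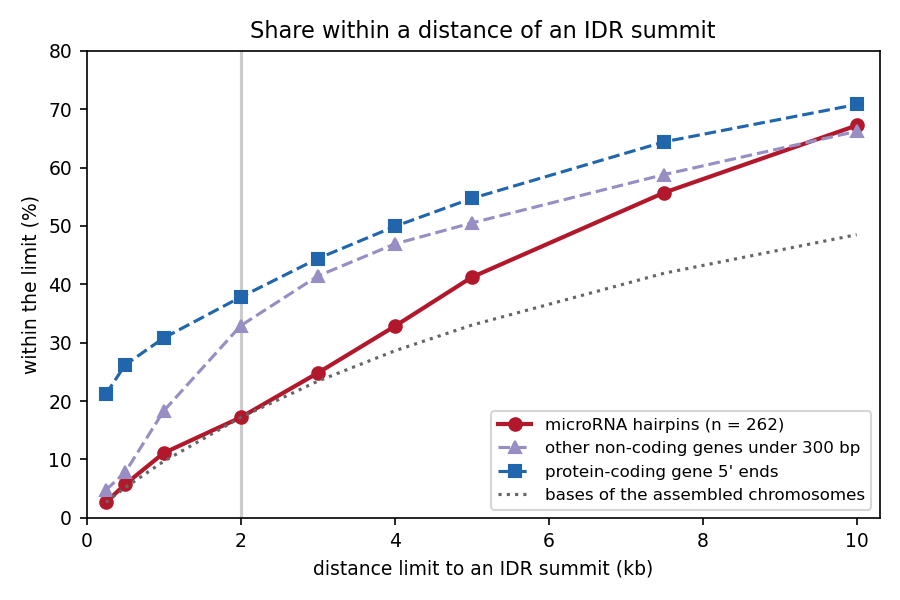
Percentage of microRNA hairpins (red), other non-coding genes under 300 bp, protein-coding gene 5′ ends and assembled bases that lay within a given distance (x axis, kb) of an IDR summit. The hairpins follow the assembled bases up to 2 kb (grey line), at 17.2%. At 10 kb, with 67.2%, they lie near the protein-coding 5′ ends (70.8%) and the other short non-coding genes (66.2%).

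Binding near hairpins went with the presence of a neighbouring start site. Of 135 hairpins within 2 kb of an annotated start site of another gene, 33 (24.4%) had an IDR summit within 2 kb, against 12 of 125 hairpins (9.60%) farther away. Hairpins carried by non-coding transcripts alone were called in 13 of 46 cases (28.3%), those inside a protein-coding gene on the same strand in 24 of 136 (17.6%), those in a gene of the opposite strand only in 2 of 27 (7.41%) and those outside other genes in 6 of 51 (11.8%). Within protein-coding hosts, 19 of 97 hairpins that overlapped no exon (19.6%) and 5 of 39 that overlapped an exon (12.8%) were called. By chromosome the share ranged from 8 of 56 on 2L to 14 of 58 on 3R (24.1%), and neither hairpin of chromosome 4 was called.

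The longer lists, each of 30000 peaks, placed a summit near more hairpins than the IDR list did. The pooled list placed a summit within 2 kb of 123 hairpins (46.9%), against 62.6% of the 5′ ends of all other genes. Replicate 1 alone gave 131 hairpins, or 50%, against 61.7% of other genes, and replicate 2 alone gave 145 (55.3%) against 69.1%. In each of the 4 lists the hairpins had the lower share.

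Replicates placed most of the same hairpins near a summit when cut to the length of the IDR list. The 7521 highest peaks gave 46 hairpins in replicate 1 and 44 in replicate 2, and 37 were in both. Of the 45 hairpins called by the IDR list, 42 were in the shortened replicate 1 list and 39 in that of replicate 2, while 1 was in neither. With the full replicate lists, 44 of the 45 were in both. Both replicates contributed to the IDR list, so its calls are not independent of either.

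In all, 52 IDR summits of 7521 were linked to a hairpin. Their signal, the authors' own score for a peak, had a median of 249.542, against 267.243 for the whole IDR list, and ran from 135.906 to 3739.37. Their median rank was 4050.5, where rank 1 is the highest peak and the middle of the list is 3761, and 24 of the 52 lay above the middle. A replicate 1 summit lay within 150 bp of all 52 and a replicate 2 summit within 150 bp of 49. Linked peaks were thus slightly lower in rank than the list as a whole, with a few near its top.

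**Figure D2:**
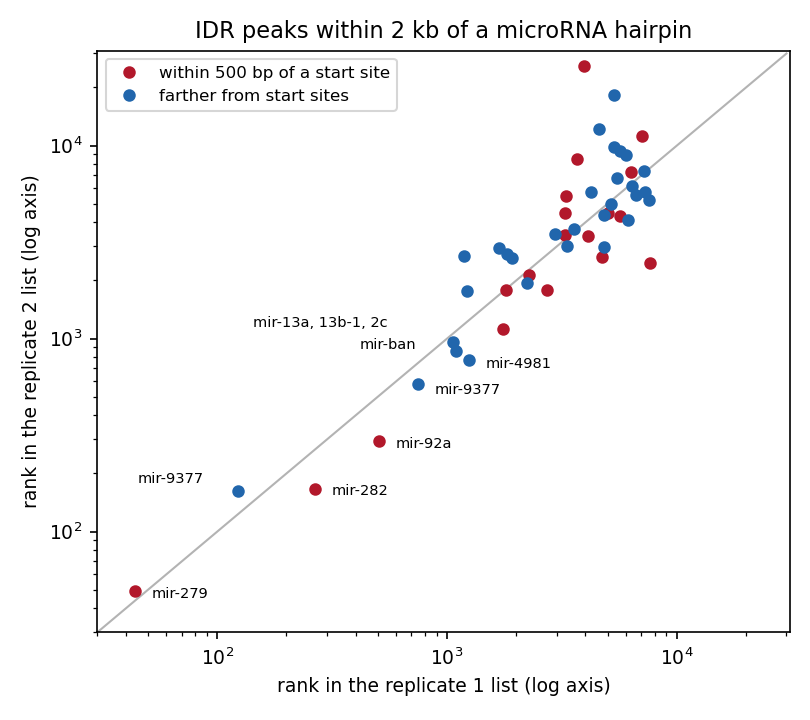
Rank of each linked IDR peak in the replicate 1 list (x axis) and in the replicate 2 list (y axis), both on log axes with 1 as the highest peak. The 49 peaks with a summit in both lists are shown, and the peaks of mir-279, mir-282, mir-92a and mir-9377 hold high ranks in both. Some others differ widely, such as the mir-967 peak, at rank 3952 in replicate 1 and 25995 in replicate 2.

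The highest linked peak belonged to mir-279, a microRNA known for limiting the formation of carbon dioxide-sensing neurons. The hairpin lies on 3R at 29215585 to 29215684, plus strand, in an exon of the non-coding gene lncRNA:CR31044. The peak had a signal of 3739 and stood at rank 43 of the IDR list, rank 44 in replicate 1 and rank 49 in replicate 2. Its summit lay 1138 bp upstream of the hairpin and 115 bp upstream of the start site of that non-coding gene. The same transcript carries mir-996, 2737 bp from the summit and so outside the limit, although both hairpins have the same seed.

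The next loci were mir-9377, mir-282 and mir-92a. A pair of summits lay downstream of mir-9377 within its host Tis11, a gene for a zinc-finger protein that destabilises messenger RNAs, at signals of 2490 (rank 122) and 977 (rank 718), 6097 and 5097 bp past the nearest Tis11 start site. The mir-282 peak, with a signal of 1823 at rank 241, lay 820 bp upstream of the hairpin and 392 bp upstream of the start of its non-coding host lncRNA:CR43626. The mir-92a summit lay 419 bp downstream of the hairpin, at a signal of 1286 and rank 445, with ranks 507 in replicate 1 and 293 in replicate 2. It was 227 bp upstream of an internal start site of the host jigr1, a gene expressed with mir-92a in neuroblasts, and mir-92b, carried by the same gene, was 4379 bp from it.

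The growth regulator bantam, annotated as mir-ban, had a summit on each side. The upstream one had a signal of 758 at rank 1030, and the downstream one, 404 bp from the hairpin, had a signal of 433 at rank 2202 with TAATTA nearby. Its 15466-bp non-coding host lncRNA:CR43334, extended by 2 kb upstream, held 8 IDR summits, the highest at rank 544. None of them lay within 500 bp of an annotated start site of that host. The listed summits at bantam were thus spread over this extended span and not placed at a host start site.

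Of the 12 clusters with the highest peaks, those remaining had signals of 749 or less. A single summit at rank 1051, with ranks 1062 and 962 in replicates 1 and 2, lay 1162, 1391 and 1532 bp upstream of mir-2c, mir-13a and mir-13b-1, hairpins of a family that represses the cell death genes reaper, grim and sickle. Signals were 713 beside mir-4981, 649 beside mir-4968 (host Mob2), 624 beside mir-9378 (host CG17124), 568 beside mir-2496 and 511 beside mir-281-1 and mir-281-2. In replicates 1 and 2 the ranks were 1249 and 776 at mir-4981, 1217 and 1765 at mir-4968 and 1190 and 2667 at mir-9378. They were 1746 and 1123 at mir-2496 and 1798 and 1781 at mir-281-1 and mir-281-2. The 12th cluster held mir-277, which targets the breakdown of branched-chain amino acids, and mir-34, known from ageing of the nervous system. A summit of signal 497 (rank 1862) lay upstream and one of 139 (rank 7318) between the hairpins. The upstream one had ranks 1679 and 2938 in replicates 1 and 2.

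**Figure D3:**
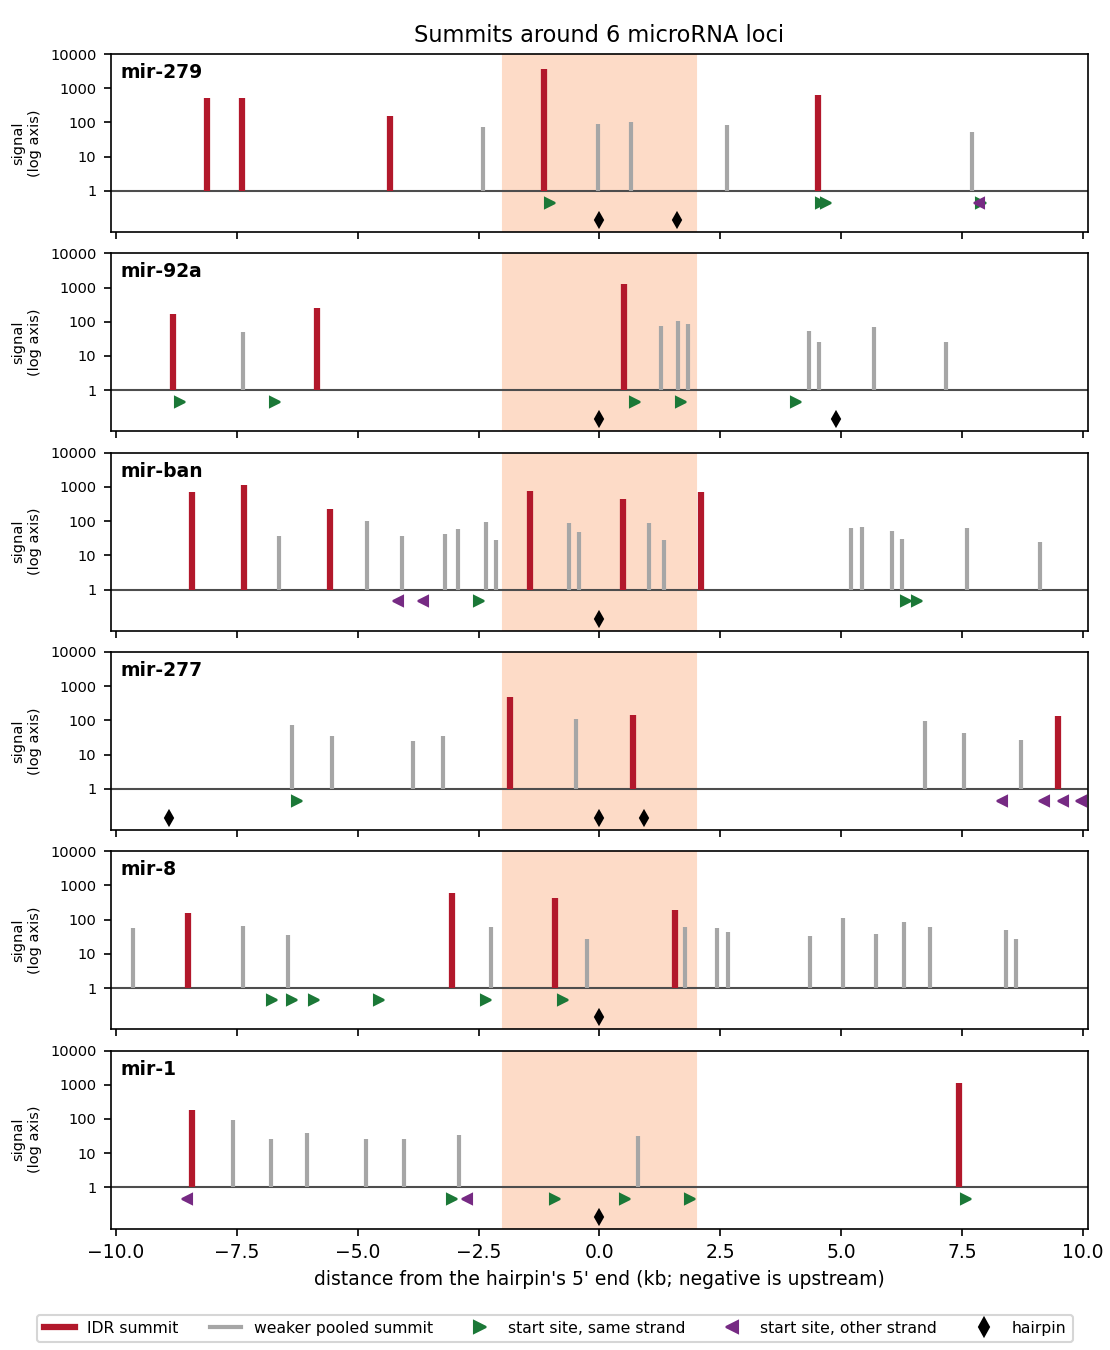
IDR summits (red) and weaker pooled summits (grey) within 10 kb of 6 microRNA hairpins, each at the height of its signal on a log axis, by distance from the hairpin's 5′ end in the direction of transcription (x axis, kb). Shading marks 2 kb on each side, triangles mark start sites and diamonds mark hairpins: the mir-279 peak of 3739 stands at a start site, and at mir-1 the shaded span holds a weaker pooled summit and no IDR summit.

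The muscle list held 3 of 9 hairpins with an IDR summit within 2 kb, mir-8, mir-277 and mir-92a, and 7 of 9 with a pooled one. Over all 262 hairpins the shares were 17.2% and 46.9%. The list's median distance to an IDR summit was 4379 bp, against 6199.5 bp for all hairpins. Of the bound members, mir-8 is also known from the fat body and mir-92a from neuroblasts.

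The hairpin of mir-1, the conserved muscle microRNA, lies on 2L at 20487441 to 20487531, plus strand, in an exon of lncRNA:CR45361. Its nearest IDR summit was 7339 bp downstream, at rank 563 with a signal of 1130, and stood 160 bp upstream of a start site of CG34007. A weak pooled summit 718 bp downstream of the hairpin had rank 24616 of 30000, and the nearest summits of the replicate lists were 589 bp away at rank 19253 in replicate 1 and 938 bp away at rank 15133 in replicate 2. No IDR summit was placed within 500 bp of a start site of its host. The reproducible summit nearest to mir-1 was thus much closer to another gene's start than to the hairpin.

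The other muscle microRNAs varied widely. At mir-133, the nearest IDR summit was 28885 bp away, the farthest in the list. At mir-9a, known for the precision of sensory organ formation and for flight muscle, the nearest IDR summit was 4306 bp upstream at rank 207, while a pooled summit 5 bp from the hairpin had rank 10421. At mir-8, a regulator of body size and of the neuromuscular junction, summits lay 917 bp upstream (rank 2183, with TAATTA, 174 bp before a start site of lncRNA:CR43650) and downstream (rank 5186). The hairpins of mir-31a and mir-31b were 12018 and 11135 bp from an IDR summit.

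Growth and cell death microRNAs, the longest of the lists, had 6 of 13 hairpins bound and 11 of 13 near a pooled summit. Over all 262 hairpins the shares were 17.2% and 46.9%. The list's median distance to an IDR summit was 2651 bp. Besides bantam and the 3 hairpins of the mir-13b-1 cluster, mir-14, a suppressor of cell death, had a summit of rank 7090 at 118 bp before the start of its host lncRNA:CR43651. The hairpin of mir-308, in an intron of the ribosomal protein gene RpS23, had summits of rank 1938 and 4211. Since the cluster shares 1 summit, the 6 hairpins stand for 4 bound loci. The unbound mir-2a-1, mir-2a-2 and mir-2b-2 lie in spi, the gene of the EGF receptor ligand Spitz, 2943, 3354 and 2651 bp from a summit (rank 2317) that was 305 bp upstream of a start site of spi.

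The neural list held 2 of 12 bound hairpins, mir-34 and mir-279, and 8 of 12 near a pooled summit, with a median IDR distance of 7347.5 bp. The shares over all hairpins were 17.2% for IDR and 46.9% for pooled summits. The brain microRNA mir-124 was 8073 bp from its nearest IDR summit, and mir-7, which acts with the EGF receptor pathway in photoreceptors, was 4873 bp from one. No hairpin of the Hox clusters was bound: mir-10, mir-993, mir-iab-4 and mir-iab-8, which regulate or neighbour homeotic genes, were 7143 to 13268 bp from an IDR summit, but all 4 had a pooled summit within 2 kb. Their pooled ranks, 19146, 29584 and 12428 (the last shared by the iab pair, opposite strands of 1 site), all lay past 7521, the length of the IDR list.

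Neither the early embryo list, 8 hairpins of the mir-309 cluster, nor the heterochronic list of mir-100, let-7 and mir-125 had any hairpin within 2 kb of an IDR or a pooled summit. The mir-309 cluster lay 8127 to 9106 bp from a summit of rank 4358, and the heterochronic hairpins lay 5183 to 6074 bp from one of rank 777. Each list is 1 cluster and thus a single place in the genome. Other large clusters had 0 of 12 bound hairpins from mir-972 to mir-979 on X and 0 of 6 from mir-959 to mir-964 on 2L. They had 0 of 5 from mir-982 to mir-984 on X and 1 of 7 from mir-310 to mir-992 on 2R. Over all hairpins, 13 of 79 in clusters of 2 or more (16.5%) and 32 of 183 alone (17.5%) were called. By cluster, 40 of 205 (19.5%) had an IDR summit within 2 kb.

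**Figure D4:**
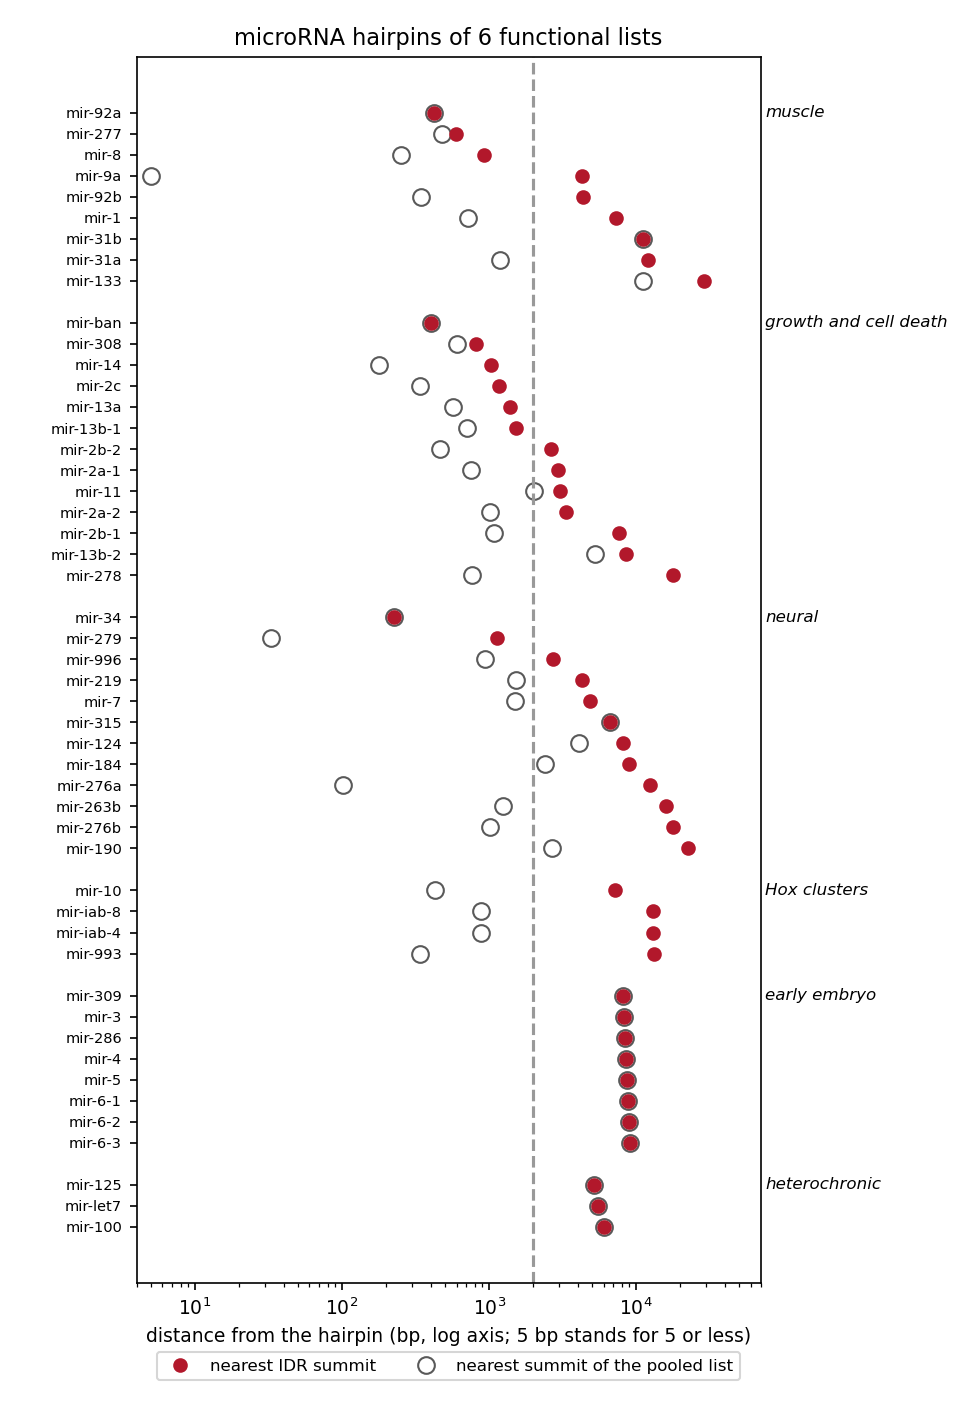
Distance from each hairpin of 6 functional lists to the nearest IDR summit (red) and the nearest pooled summit (open circles), in bp on a log axis, with a dashed line at 2 kb. The 8 early embryo hairpins and the 3 heterochronic hairpins lie right of the line for both kinds of summit, and the 4 Hox cluster hairpins lie left of it for pooled summits alone.

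The 2 kb limit divided similar values. Just inside it were mir-1012 at 1912 bp, mir-992 at 1956 bp and mir-4955 at 1979 bp, and just outside were mir-991 at 2066 bp, mir-1009 at 2194 bp and mir-957 at 2202 bp. The neighbours mir-992 and mir-991 were measured from the same summit, of rank 5423, and fell on opposite sides.

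Linked summits lay more often before the hairpin than after it. Of the 45 called hairpins, the nearest IDR summit was upstream in the direction of transcription in 26, downstream in 17 and inside the hairpin in 2, namely mir-4974 and mir-4962. Counted once per hairpin cluster, with summits inside a cluster left out, 28 IDR summits lay upstream and 18 downstream within 2 kb. Within 10 kb there were 194 and 122. The pooled list gave 134 upstream and 119 downstream within 2 kb, and 687 and 574 within 10 kb. With summits inside clusters left out, both lists held more summits upstream than downstream at both distances. The same split was not made for other genes.

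**Figure D5:**
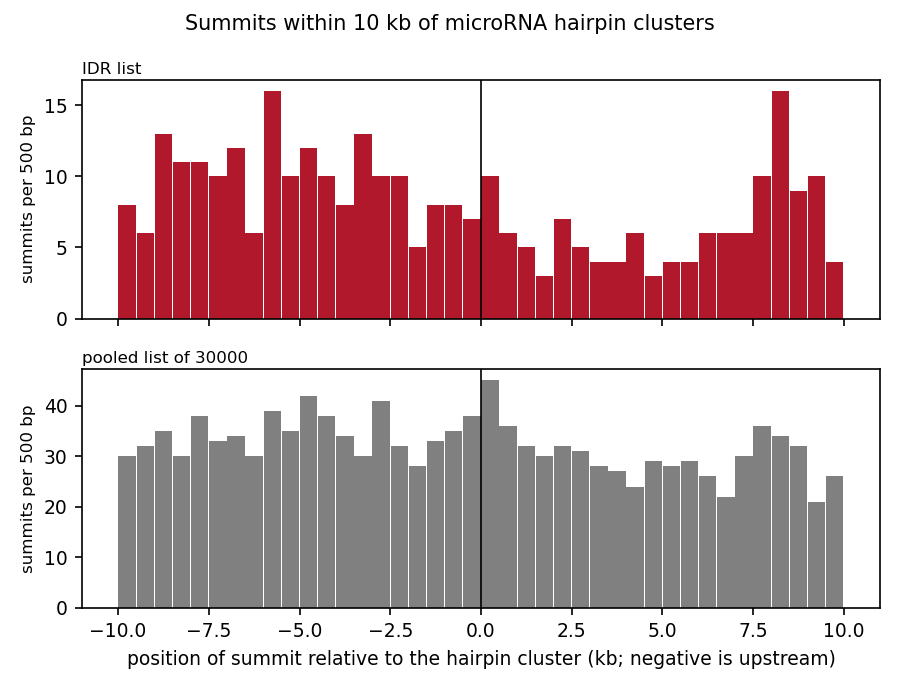
Number of IDR summits (upper panel) and pooled summits (lower panel) per 500 bp by position from the hairpin cluster, in kb along the direction of transcription, with summits inside a cluster in the bar just right of 0. Within 10 kb, 194 IDR summits lie upstream and 122 downstream, those inside a cluster not counted.

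Annotated start sites, those of the hosts included, lay within 500 bp of 22 of the 52 linked summits (42.3%), against 3441 of 7521 IDR summits in all (45.8%). Of these 22, 21 lay upstream of the start site. The same share over all IDR summits is not given here, so this is not read as particular to linked summits. The nearest start site was that of the hairpin's own host in 15 of the 22 and that of another gene in 7. Over all 52, it was the host's in 39. Linked summits were thus no more frequent at promoters than other IDR summits.

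Host genes, counted over their whole span, carried summits more often than the hairpins, which were counted in a smaller window of 2 kb. Of 262 hairpins, 182 lay in a gene on the same strand, 82 of them overlapping an exon, and there were 165 such hosts. Within the span of the gene extended by 2 kb upstream, an IDR summit was listed for 99 hosts (60.0%). Among protein-coding hosts it was 81 of 128 (63.3%), against 40.0% of all protein-coding genes (5583 of 13968). Among non-coding hosts it was 18 of 37 (48.6%), with no share over all non-coding genes by this rule to set beside it.

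Hosts were longer than other genes, and the part of length in their share was not tested beyond a comparison within a range of lengths. The median length was 14094.5 bp for protein-coding hosts and 2164.5 bp for all protein-coding genes. Between 3996.75 and 29776.2 bp, the quartiles of host length, 47 of 64 hosts (73.4%) had a summit, against 2035 of 3537 genes (57.5%). Within 500 bp of a start site, 55 of 128 protein-coding hosts (43.0%) had a summit, against 4029 of 13968 protein-coding genes (28.8%), and 9 of 37 non-coding hosts (24.3%), against 266 of 2548 non-coding genes (10.4%). The share was higher for hosts at each of these settings. The counts at start sites took any annotated start site of a gene and were not limited to a range of lengths.

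The 5 hosts with most IDR summits, counted over the same extended span, were all protein-coding and over 40 kb long. Tlk, the gene of the Tousled-like kinase, held 14 summits, the highest at rank 24, and hosts mir-4962. The homeodomain gene hth held 12 and hosts mir-4944, and bun, a TSC22 family gene, held 11 and hosts mir-967. E2f1, a cell cycle transcription factor that hosts mir-998 and the cell death repressor mir-11, held 9, as did SKIP, which hosts mir-1010. Of these hairpins, mir-4962 and mir-967 had a summit within 2 kb. The others were farther from one, mir-998 by 2396 bp, mir-11 by 3014 bp, mir-4944 by 7603 bp and mir-1010 by 22900 bp. In replicates 1 and 2, the mir-4962 summit had ranks 5336 and 18210, and the mir-967 summit had ranks 3952 and 25995. Both thus ranked far lower in replicate 2.

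A bound host did not imply binding near its hairpin. Among the 182 hosted hairpins, 110 had a host with an IDR summit, and for 75 of these no summit lay within 2 kb of the hairpin. Of all 262 hairpins, 142 (54.2%) had no IDR summit within 2 kb and none in the extended span of a host. A summit within 500 bp of a start site of the host was listed for 73 of the 182 (40.1%).

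Genes of the microRNA and other small RNA pathways were bound in 10 of 12 cases, counted over the same extended span, against 40.0% of protein-coding genes. The exceptions were the Dicer genes Dcr-1 and Dcr-2, neither of which had a pooled summit. The highest signals belonged to pasha, the partner of Drosha, at 2277 (rank 151), to r2d2, the partner of Dicer-2, at 1291 (rank 443), and to gw, the GW182 effector of silencing, at 758 (rank 1032). The remaining 7, namely the 3′-trimming nuclease gene Nbr, AGO1, Ranbp21, loqs, the methyltransferase gene Hen1, AGO2 and drosha, had signals of 146 to 365. With the 7521 highest peaks of either replicate in place of the IDR list, 8 of the 12 were bound. In replicate 1, drosha and Hen1 fell outside that cut, with best ranks of 7624 and 8179. In replicate 2, loqs and AGO2 did, with best ranks of 7778 and 13367. These genes each had a summit in both full replicate lists.

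At pasha, r2d2, Nbr, AGO1, drosha and Hen1 the start site nearest to the summit was that of another gene. The pasha summit was 1801 bp upstream of the pasha start site and 16 bp upstream of that of Mnat9. The r2d2 summit was 129 bp upstream of its own start and 40 bp past that of Herp, and the Nbr summit was 425 bp before its own start and 133 bp before that of Noc2. At gw and loqs the nearest start site was the gene's own, 153 and 137 bp downstream of the summit. The gene to which a summit belongs cannot be told from position alone where another start site is nearer.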

How the data were processed

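Whole embryos carrying GFP-tagged lms were studied by ChIP-seq with an anti-GFP antibody, in 2 biological replicates. Per the labels, chromatin was sonicated and the assembly was dm6. According to deposited notes, the authors called peaks per replicate and on the pooled replicates, with 1 control throughout, and took the IDR list from these calls. No counting interval was computed, since read depth, like the aligner, caller and IDR settings, is not given in the sources used here. The deposited signal and the deposited −log10 q-value are the authors' scores; ranks were taken from signal and compared within or between lists. The deposited summit offset, a position in bp, was added to the peak start.

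Hairpins and genes came from Ensembl release 115 (FlyBase 6.54), and mature arms and sequences from RefSeq, release 6. Of 262 hairpins, 260 matched a RefSeq entry. The 485 mature arms that the annotation lists as genes were left out, as were transposable elements. Hosts were genes on the hairpin's strand whose span holds it. Calls were described by counts and set beside all genes, with no test. The code that links summits to hairpins was checked on simulated summits at known distances. Python 3.11.15, numpy 2.4.6, pandas 2.3.3 and matplotlib 3.10.9 were used.

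The members, lists, motifs and rules were chosen with earlier results of these data known. Named are hairpins of 6 lists, those of the 12 clusters with the highest IDR signal within 2 kb, 3 hairpins on each side of that limit, and the 5 hosts with most summits. Beyond that rule, mir-4974, mir-2491, mir-969, mir-275 and mir-305 were named after their values were seen. The alternatives were other distances, lists, units and promoter widths. Both replicates form 1 group.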

Additional observations from a re-analysis of the deposited data

How the results depend on the processing

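The share of hairpins with a summit within 2 kb, 17.2%, moved with the distance, to 5.725% at 500 bp, 11.07% at 1 kb and 41.22% at 5 kb. It moved with the list, to 46.95% with all pooled peaks, 50% with all replicate 1 peaks, 55.34% with all replicate 2 peaks and 8.779% with the IDR peaks above the middle rank. The median distance was 11116 bp with those higher peaks and 5883 bp with 1 value per cluster, and leaving out 1 replicate gave 5905 to 6086 bp. Leaving out 1 replicate meant taking the 7521 highest peaks of the other. Hosts with a summit numbered 64 when it had to lie within 500 bp of a start site, against 99. The share of linked summits at start sites was 28.85% within 250 bp and 53.85% within 1 kb, and leaving out 1 replicate gave 42.31 to 44.83%. The cause was not tested. The other 13 of 27 alternatives, among them those for pathway genes, stayed within 1.5 times the value reported or within the spread between replicates. No paired analysis was possible because the samples form 1 group. Depth is not given, so a missing summit does not show that the protein was absent.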
